A study of Rattus norvegicus with 9 samples.

Results

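The genes described here are 40 genes typical of B lymphocytes, T lymphocytes and natural killer (NK) or other cytotoxic lymphocytes, followed in rat CD68+ cells of the early foreign body reaction (FBR). They were chosen by name, with earlier results of these data known: 10 for B cells, 21 for T cells and 9 for NK and cytotoxic cells. Of these, 37 were measured among the 14218 genes of the array, each read from the probe set (the group of oligonucleotides that reports 1 transcript) with the highest mean signal among its probe sets. The measured genes were 9 for B cells, 20 for T cells and 8 for NK and cytotoxic cells. Pax5, Cd27 and Tbx21 were matched to no probe set and are not analysed here.

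All cells came from male Wistar rats and were selected with magnetic beads against CD68, a lysosomal glycoprotein of monocytes and macrophages. FBR CD68+ cells were taken from the neotissue on patches of acellular photo-oxidized bovine pericardium, kept for 3 days in stainless steel cages in the peritoneal cavity and then digested with collagenase and plasmin. In vitro activated CD68+ cells were selected from blood mononuclear cells and cultured for 3 days on polytetrafluoroethylene coated with fibrinogen. Blood CD68+ cells were selected in the same way and not cultured. Each group had 3 arrays. How many rats went into an array is not given in the sources used here, so n counts arrays, and p values measure the spread between arrays.

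B cells recognise antigen through a membrane antibody coupled to Cd79a and Cd79b, T cells through a receptor coupled to the Cd3 chains, and NK cells through inherited receptors, after which perforin and granzymes kill the target cell. Blood mononuclear cells hold all of these lymphocytes beside monocytes. A CD68 selection is meant to keep the monocytes, and lymphocytes are not its target. In pooled cells, a smaller number of lymphocytes and less RNA per cell cannot be told apart.

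Signals were MAS5 values, a linear brightness scaled so that the trimmed mean of every array was about 500 (499.1 to 502.0). Array medians were 69.6 to 77.4 in FBR, 87.0 to 110.2 in in vitro activated and 97.4 to 102.9 in blood CD68+ cells. Across all probe sets, arrays correlated at 0.931 to 0.976 within groups and 0.796 to 0.899 between groups. Cd68 itself had signals of 20075, 24802 and 20470 in FBR, 28965, 23892 and 38245 in in vitro activated, and 11741, 3524 and 8450 in blood CD68+ cells. Over blood, the log2 fold change of Cd68 was 1.62 in FBR (limma adjusted p = 0.012) and 2.08 in in vitro activated cells (adjusted p = 0.0044). The summed signal of 13 monocyte and macrophage markers was 111261 to 133834 in FBR, 92169 to 133355 in in vitro activated and 34069 to 66144 in blood CD68+ cells. Of 17 such markers tested, FBR over blood gave 10 higher, 1 lower and 6 not called (median log2 fold change 1.44), where 14.7% of all genes were higher. In vitro activated over blood gave 5 higher, 1 lower and 11 not called (median 0.57), where 15.4% of all genes were higher. The part of these markers in the changes below was not tested.

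Compared with blood, 32 of the 37 lymphocyte genes were lower in FBR CD68+ cells at an adjusted p under 0.05, against 19.2% of all genes (limma on log2 of the signal plus 16, over all probe sets). None rose past that threshold, against 14.7% of all genes, and 1 was higher at an unadjusted p under 0.05. In in vitro activated CD68+ cells, 28 were lower than in blood, against 12.2% of all genes, and 1 was higher, against 15.4%. On arrays, 29 of the 33 genes with a value on all 6 arrays had FBR below blood without overlap, against 29.2% of all genes, and 27 of 33 had in vitro activated below blood, against 18.6%. Both comparisons use the same 3 blood arrays. Since the genes were chosen with earlier results of these data known, the shares of all genes are given for scale only. The 3 lineages are shown by array in the heat map of the 37 genes, where the blood columns are the brightest for nearly every row of the B and NK blocks.

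**Figure D1:**
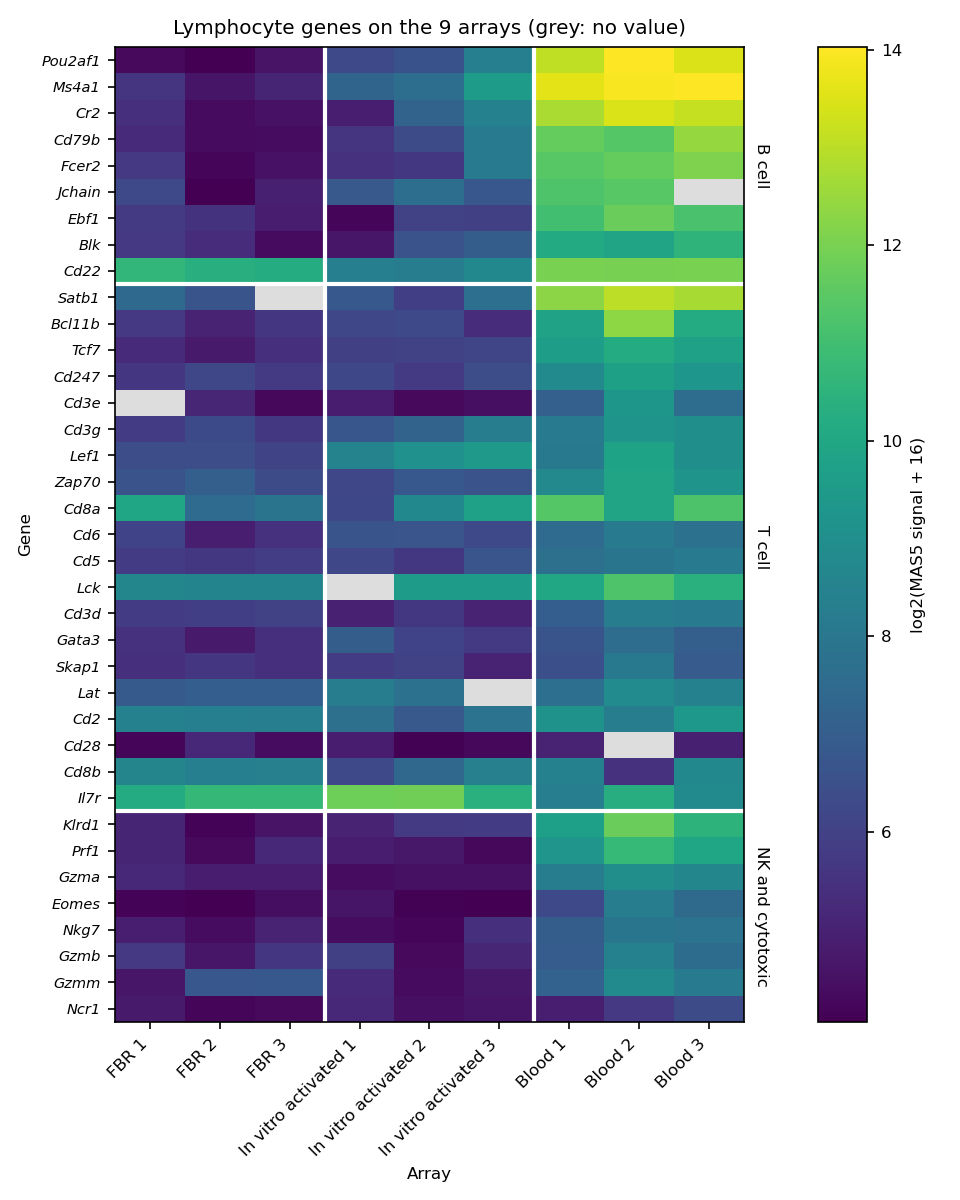
Heat map of log2(MAS5 signal + 16) for the 37 measured lymphocyte genes (rows, by lineage and then by the change in FBR over blood) on the 9 arrays (columns: 3 FBR, 3 in vitro activated, 3 blood), grey where an array has no value. B cell and NK genes are brightest on the blood arrays, Cd22 keeps an intermediate signal of 1189 to 1609 on the FBR arrays, and Il7r is brightest on 2 of the in vitro activated arrays (3607 and 3682).

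The B cell genes had the largest falls. All 9 were lower in FBR and all 9 in in vitro activated than in blood CD68+ cells, with median log2 fold changes of -6.92 and -5.30, where the medians over all genes were -0.09 and 0.13. Fold changes were computed after adding 16 to each signal, which understates the change of genes with low signals. With 1 or 64 added the B cell medians were -8.39 and -5.47 in FBR over blood, and -5.68 and -4.58 in in vitro activated over blood, and with the mean of all probe sets -5.55 and -4.84.

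Ms4a1 (CD20, a surface protein of mature B cells) had signals of 32.7, 8.45 and 17.7 in FBR, 140, 185 and 717 in in vitro activated, and 12497, 15691 and 16481 in blood CD68+ cells. The 3 groups did not overlap, and blood was far above both others. The log2 fold change was -8.76 ± 0.52 (SE, n = 3 arrays each, limma adjusted p = 3.8e-06) in FBR over blood and -5.70 ± 0.52 (adjusted p = 6.3e-05) in in vitro activated over blood. The spread behind each SE and p value was estimated from all 9 arrays together. Leaving out an array of the group not compared can therefore change a call. Cd79b, the signalling chain of the B cell receptor, had signals of 23.0, 4.14 and 5.23 in FBR, 32.5, 65.1 and 264 in in vitro activated, and 3217, 2672 and 5527 in blood CD68+ cells. Here too the groups kept the order FBR, in vitro activated, blood without overlap, and Cd79b was lower than in blood by -7.15 ± 0.58 in FBR (adjusted p = 1.9e-05) and by -5.14 ± 0.58 in in vitro activated cells (adjusted p = 2e-04).

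Pou2af1 (OBF-1), the coactivator through which octamer factors drive antibody genes, had the lowest fold change of the 37 genes in FBR over blood with 16 added to each signal. Its signals were 3.66, 1.09 and 7.96 in FBR, 60.8, 80.2 and 309 in in vitro activated, and 8590, 16668 and 11456 in blood CD68+ cells. The log2 fold changes over blood were -9.20 ± 0.49 in FBR (adjusted p = 2.5e-06) and -6.46 ± 0.49 in in vitro activated cells (adjusted p = 2.9e-05). At FBR signals this low the size of the change depends on the value added before the logarithm. With 1 or 64 added in place of 16, the log2 fold change of Pou2af1 in FBR over blood was -11.38 and -7.44, and the call was kept. Its place among the 37 genes was not, since Ms4a1 was lower with 64 added (-7.48).

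A pair of surface receptors of mature B cells fell in the same way. Cr2 (CD21, a complement receptor) had signals of 26.0, 4.14 and 7.25 in FBR, 13.4, 135 and 332 in in vitro activated, and 6894, 11392 and 9026 in blood CD68+ cells. FBR and in vitro activated arrays overlapped, and both groups lay below every blood array, with log2 fold changes over blood of -8.37 ± 0.73 (adjusted p = 2.8e-05) and -6.27 ± 0.73 (adjusted p = 0.00023). Fcer2 (CD23, the low-affinity receptor for IgE) had signals of 35.9, 2.45 and 7.19 in FBR, 28.6, 35.5 and 267 in in vitro activated, and 2769, 3269 and 4326 in blood CD68+ cells, again with the blood arrays apart from the rest.

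Ebf1, a transcription factor that specifies the B lineage, had signals of 37.6, 29.8 and 12.3 in FBR, 2.83, 47.2 and 45.7 in in vitro activated, and 2022, 3433 and 2304 in blood CD68+ cells. Its log2 fold changes were -5.95 in FBR over blood and -5.92 in in vitro activated over blood (SE 0.47 each). Jchain, which joins antibody units into polymers in antibody-secreting cells, had signals of 60.3, 1.04 and 14.8 in FBR, 98.5, 186 and 92.2 in in vitro activated, and 2447 and 2760 on the 2 blood arrays with a value. Its log2 fold changes were -6.26 ± 0.56 in FBR over blood (adjusted p = 6.2e-05) and -4.27 ± 0.56 in in vitro activated over blood (adjusted p = 7e-04). Blk, a Src-family kinase of B cells, ranged over 4.18 to 37 in FBR, 9.07 to 112 in in vitro activated and 927 to 1491 in blood CD68+ cells, with log2 fold changes over blood of -5.07 and -4.11.

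Cd22, an inhibitory sialic acid-binding receptor of B cells, followed another pattern. Its signals were 1609, 1267 and 1189 in FBR, 311, 290 and 399 in in vitro activated, and 4117, 3995 and 4134 in blood CD68+ cells. No 2 groups overlapped, and here FBR lay between in vitro activated and blood. Cd22 was lower in FBR than in blood by -1.59 ± 0.23 (adjusted p = 0.00059), lower in in vitro activated over blood by -3.57 ± 0.23 (adjusted p = 1.8e-05), and higher in FBR over in vitro activated by 1.97 ± 0.23 (adjusted p = 0.00039). Among the 9 B cell genes it had the smallest fold change in FBR over blood, where the other 8 lay between -9.20 and -5.07.

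**Figure D2:**
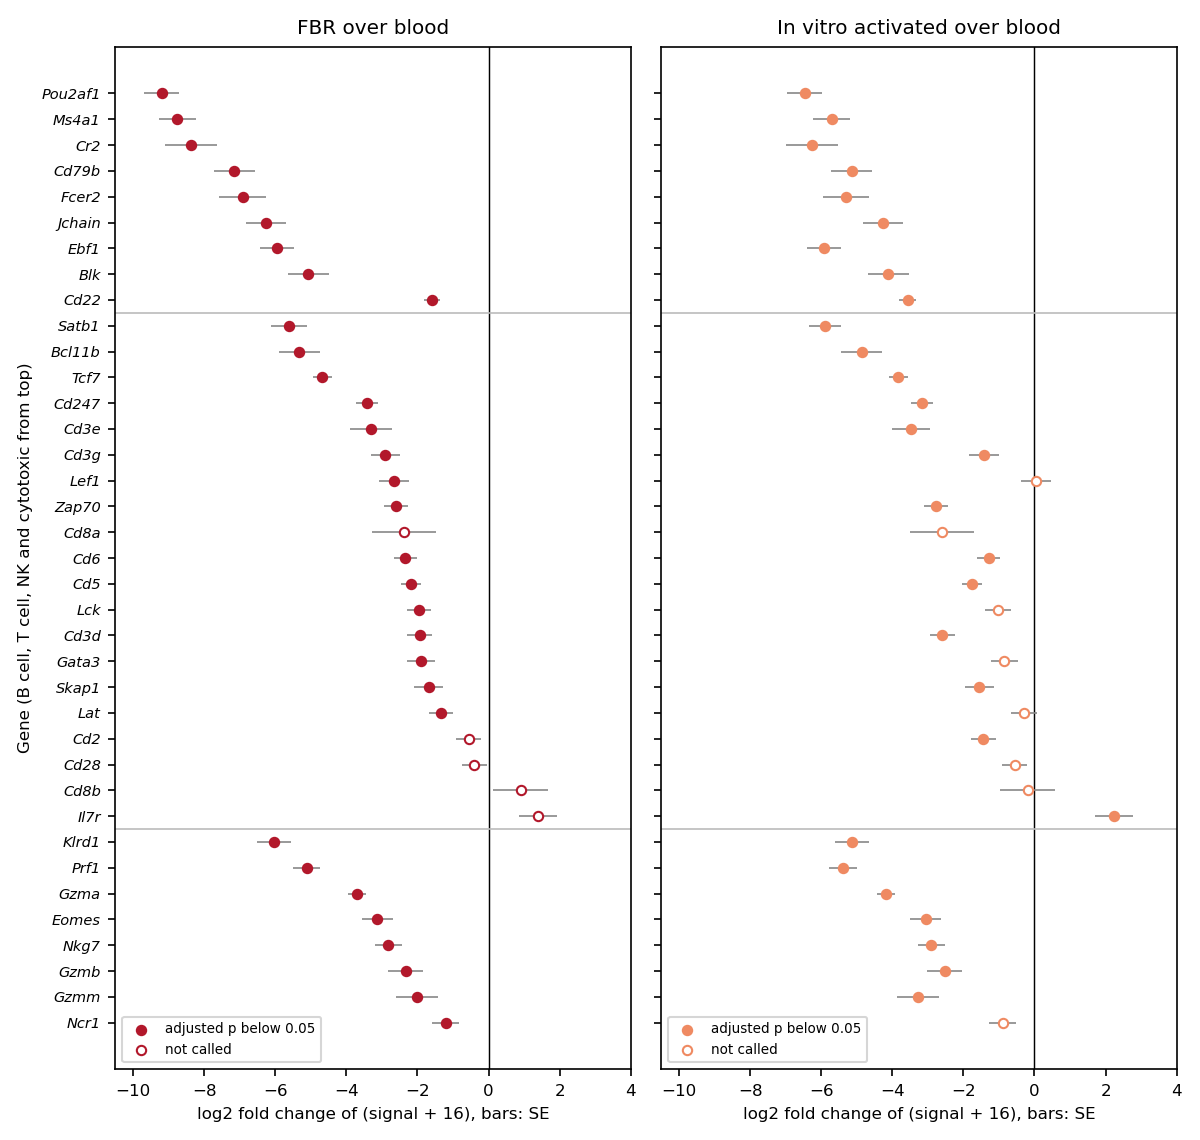
Log2 fold change of the signal plus 16 (x axis, bars are SE) of each of the 37 genes (rows) in FBR over blood (left) and in vitro activated over blood (right), filled where the adjusted p was under 0.05. All B cell genes are filled and left of 0 in both panels, Lef1 is filled only on the left (-2.67) and stands at 0.04 on the right, and Il7r is the only gene filled to the right of 0 (2.23, in vitro activated over blood).

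The T cell genes had smaller log2 fold changes than the B cell genes, and less even ones. A gene with a low blood signal can fall only little on this scale. Cd3d (116 to 288 in blood) and Skap1 (74.3 to 258) started low, while Satb1 started at 5029 to 8410. Blk, a B cell gene, started at 927 to 1491. The part of the starting level in the difference between lineages was not tested. In FBR over blood 15 of 20 were lower and 5 were not called (Cd2, Cd28, Cd8a, Cd8b and Il7r), and the median log2 fold change was -2.26. In in vitro activated over blood 12 were lower, 1 was higher and 7 were not called (Cd28, Cd8a, Cd8b, Gata3, Lat, Lck and Lef1), with a median of -1.49. With 1 or 64 added the T cell medians were -2.53 and -1.70 in FBR over blood, and -1.80 and -1.20 in in vitro activated over blood.

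The chains that couple the T cell receptor to the cell interior were lower in both. Cd3e had signals of 19.1 and 3.28 on the 2 FBR arrays with a value, 13.3, 4.12 and 5.87 in in vitro activated, and 123, 624 and 180 in blood CD68+ cells, so blood lay above both other groups. It was lower than in blood by -3.32 ± 0.59 in FBR (adjusted p = 0.0023) and by -3.47 ± 0.53 in in vitro activated cells (adjusted p = 0.0015). A second, dimmer Cd3e probe set passed the threshold in neither comparison (-1.10, adjusted p = 0.092, in FBR over blood and -0.83, adjusted p = 0.22, in in vitro activated over blood). Cd3d had signals of 39.3, 43.3 and 46.7 in FBR, 15.8, 35.7 and 15.9 in in vitro activated, and 116, 288 and 270 in blood CD68+ cells, and its log2 fold changes over blood were -1.94 ± 0.35 and -2.59 ± 0.35.

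Cd247, the zeta chain, had signals of 33.2, 57.2 and 37.7 in FBR, 58.1, 38.1 and 68.2 in in vitro activated, and 429, 832 and 620 in blood CD68+ cells, with blood apart from the rest. Its log2 fold changes were -3.43 in FBR over blood (adjusted p = 3.5e-05) and -3.16 in in vitro activated over blood (adjusted p = 8.7e-05). A second Cd247 probe set was lower in FBR over blood (-1.21, adjusted p = 0.016) and did not pass in in vitro activated over blood (-0.78, adjusted p = 0.11). Cd3g had signals of 39.0, 63.1 and 34.8 in FBR, 90.2, 133 and 292 in in vitro activated, and 282, 576 and 504 in blood CD68+ cells. In vitro activated replicate 3 reached the lowest blood array, and the fall of Cd3g in in vitro activated over blood (-1.41 ± 0.42, adjusted p = 0.031) lost its call without blood replicate 2 (adjusted p = 0.11), without blood replicate 3 (0.092), without in vitro activated replicate 1 (0.11) or without in vitro activated replicate 2 (0.084). In FBR over blood it fell by 2.90 (adjusted p = 0.00052).

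Of the kinases and adaptors that act next, Zap70 was lower in both groups, with signals of 80.6, 120 and 67.0 in FBR, 55.7, 95.2 and 80.7 in in vitro activated, and 420, 921 and 582 in blood CD68+ cells (log2 fold changes -2.60 ± 0.33 and -2.77 ± 0.33). Its second probe set passed in in vitro activated over blood (-1.30, adjusted p = 0.016) and not in FBR over blood (-0.83, adjusted p = 0.083). Lck, the kinase bound to CD4 and CD8, had signals of 383, 364 and 362 in FBR, 720 and 736 on the 2 in vitro activated arrays with a value, and 1010, 2448 and 1333 in blood CD68+ cells. The 3 groups stood in that order without overlap, but the change passed the threshold in FBR over blood (-1.96 ± 0.33, adjusted p = 0.0016) and not in in vitro activated over blood (-1.02 ± 0.36, adjusted p = 0.073, and 0.033 without blood replicate 1). The difference between FBR and in vitro activated cells did not pass either (-0.95 ± 0.36, adjusted p = 0.094, and 0.024 without blood replicate 2).

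Lat, the membrane scaffold phosphorylated by Zap70, had signals of 101, 116 and 117 in FBR, 299 and 203 on 2 in vitro activated arrays, and 190, 447 and 332 in blood CD68+ cells. FBR lay below blood (-1.34 ± 0.33, adjusted p = 0.012), and in vitro activated and blood arrays overlapped (-0.29 ± 0.37, adjusted p = 0.62). Skap1, an adaptor that links the receptor to integrins, changed by -1.68 in FBR over blood (adjusted p = 0.01) and by -1.55 in in vitro activated over blood (adjusted p = 0.02, and 0.063 without in vitro activated replicate 3). Cd5 and Cd6, related scavenger-type receptors that tune T cell signalling, ranged over 34.5 to 42.9 and 13.7 to 50.2 in FBR, 35.6 to 87.3 and 60.7 to 86.7 in in vitro activated, and 200 to 273 and 170 to 262 in blood CD68+ cells. They were lower in FBR (-2.17 and -2.34) and in in vitro activated cells (-1.77 and -1.29), the Cd6 call in in vitro activated over blood being lost without blood replicate 2 (adjusted p = 0.051).

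The transcription factors of the T lineage included the largest T cell changes. Bcl11b, needed for T cell commitment, had signals of 36.1, 16.5 and 33.4 in FBR, 56.3, 60.0 and 23.9 in in vitro activated, and 867, 5124 and 1166 in blood CD68+ cells. All blood arrays lay above the rest, and blood replicate 2 stood far above the other blood arrays. The log2 fold changes over blood were -5.32 ± 0.58 (adjusted p = 0.00011) and -4.86 ± 0.58 (adjusted p = 0.00027). Satb1, a chromatin organiser of thymocytes, was 163 and 85.6 on 2 FBR arrays, 95, 44.5 and 193 in in vitro activated, and 5029, 8410 and 6826 in blood CD68+ cells, and had log2 fold changes of -5.62 in FBR over blood and -5.89 in in vitro activated over blood.

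Tcf7 and Lef1, paired transcription factors of naive T cells in the Wnt pathway, parted in culture. Tcf7 had signals of 23.4, 11.3 and 28.0 in FBR, 45.7, 48.1 and 53.8 in in vitro activated, and 769, 1153 and 856 in blood CD68+ cells, and was lower than in blood in both (-4.68 ± 0.27, adjusted p = 2.8e-06, and -3.83 ± 0.27, adjusted p = 2e-05). Lef1 had signals of 69.6, 68.5 and 53.1 in FBR, 351, 532 and 684 in in vitro activated, and 255, 898 and 502 in blood CD68+ cells. It was low on the FBR arrays only, while in vitro activated and blood arrays overlapped. Lef1 was lower in FBR than in blood (-2.67 ± 0.42, adjusted p = 0.00086) and than in the cultured cells (-2.71 ± 0.42, adjusted p = 0.0016), and in vitro activated over blood gave 0.04 ± 0.42 (adjusted p = 0.95).

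Gata3, a factor of T cell development and of T helper type 2 cells, had signals of 29.0, 11.1 and 26.6 in FBR, 112, 50.8 and 37.5 in in vitro activated, and 85.6, 179 and 119 in blood CD68+ cells. It was lower in FBR than in blood (-1.90 ± 0.38, adjusted p = 0.0037), where a second probe set gave -0.12 (adjusted p = 0.88). In in vitro activated over blood it did not pass (-0.85 ± 0.38, adjusted p = 0.14, and 0.041 without in vitro activated replicate 1).

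Il7r, the receptor chain for interleukin-7, was the only one of the 37 genes called higher than in blood. Its signals were 1140, 1648 and 1641 in FBR, 3607, 3682 and 1316 in in vitro activated, and 301, 1209 and 426 in blood CD68+ cells. The in vitro activated arrays all exceeded the highest blood array, and 1 FBR array lay below blood replicate 2. Il7r rose in in vitro activated over blood by 2.23 ± 0.53 (adjusted p = 0.012), and its second probe set rose by 2.86 (adjusted p = 0.0014). In FBR over blood the main probe set gave 1.4 ± 0.53 (adjusted p = 0.07) and the second passed (1.72, adjusted p = 0.0077). The main probe set also passed there without blood replicate 2 (1.97, adjusted p = 0.013) or without in vitro activated replicate 3 (adjusted p = 0.04).

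Cd28, the main costimulatory receptor, had signals of 2.31, 19.6 and 4.79 in FBR, 13.2, 1.46 and 3.15 in in vitro activated, and 16.3 and 14.8 on 2 blood arrays. These signals are low in every group, and no difference passed.

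The remaining T cell genes are Cd2, Cd8a and Cd8b. Other cells may also express further genes of the T cell list, which was not tested. Cd2 is an adhesion receptor of T and NK cells, and in rats the CD8 chains also occur on NK cells and on part of the monocytes and macrophages. Cd2 had signals of 328, 317 and 300 in FBR, 197, 100 and 217 in in vitro activated, and 541, 298 and 641 in blood CD68+ cells. It was lower in in vitro activated over blood (-1.44 ± 0.35, adjusted p = 0.013, and 0.051 without blood replicate 3), and in FBR over blood it did not pass (-0.56 ± 0.35, adjusted p = 0.27).

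Cd8a had signals of 974, 171 and 219 in FBR, 59.1, 408 and 846 in in vitro activated, and 2707, 915 and 2377 in blood CD68+ cells. It varied widely within each group and passed in neither comparison with blood (-2.38 ± 0.89, adjusted p = 0.068, and -2.60 ± 0.89, adjusted p = 0.057). It passed in FBR over blood without FBR replicate 1 (-3.12, adjusted p = 0.03), without in vitro activated replicate 1 (adjusted p = 0.022) or without in vitro activated replicate 3 (adjusted p = 0.045), and in in vitro activated over blood without FBR replicate 1 (adjusted p = 0.045) or without in vitro activated replicate 3 (-3.35, adjusted p = 0.024). Of its other probe sets, 1 was lower in in vitro activated over blood (-2.20, adjusted p = 0.028). Cd8b had signals of 367, 310 and 325 in FBR, 61.1, 155 and 319 in in vitro activated, and 332, 29.2 and 406 in blood CD68+ cells, and no difference passed (0.90 ± 0.78 in FBR over blood, and -0.13 without blood replicate 2).

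All 8 NK and cytotoxic genes were lower in FBR than in blood CD68+ cells, with a median log2 fold change of -2.98, and 7 of 8 fell in in vitro activated over blood, with a median of -3.17. With 1 or 64 added the NK and cytotoxic medians were -4.27 and -1.69 in FBR over blood, and -4.94 and -1.88 in in vitro activated over blood. Low blood signals limit the possible fall here too, as for Nkg7 (112 to 226 in blood) beside Klrd1 (812 to 3397). Klrd1 (CD94), the shared chain of the NK receptors for class I molecules, had signals of 18.2, 2.03 and 7.90 in FBR, 16, 37.8 and 39.9 in in vitro activated, and 812, 3397 and 1441 in blood CD68+ cells. The blood arrays lay above all others, with log2 fold changes over blood of -6.03 ± 0.48 (adjusted p = 1.7e-05) and -5.13 ± 0.48 (adjusted p = 7.8e-05).

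The cytotoxic granule genes moved with Klrd1. Prf1 (perforin, which forms pores in the target cell) had signals of 18, 4.11 and 19.6 in FBR, 12.5, 9.78 and 3.18 in in vitro activated, and 594, 1686 and 973 in blood CD68+ cells, with log2 fold changes over blood of -5.12 (adjusted p = 1.3e-05) and -5.38 (adjusted p = 2.1e-05). Gzma (granzyme A, a granule protease) had signals of 20.9, 12.2 and 11.9 in FBR, 4.77, 6.49 and 6.58 in in vitro activated, and 294, 492 and 379 in blood CD68+ cells, with -3.69 (adjusted p = 7.9e-06) and -4.18 (adjusted p = 1.5e-05). Blood arrays were apart from all others for both genes.

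Gzmb (granzyme B) had signals of 35.8, 9.54 and 33.5 in FBR, 46.4, 3.70 and 19.2 in in vitro activated, and 109, 327 and 178 in blood CD68+ cells (log2 fold changes over blood -2.33 ± 0.49 and -2.53 ± 0.49). Nkg7, a granule membrane protein, had signals of 14.0, 5.22 and 16 in FBR, 4.86, 3.02 and 27.4 in in vitro activated, and 112, 226 and 217 in blood CD68+ cells (-2.82 ± 0.38 and -2.90 ± 0.38). In both genes every blood array exceeded every other array. Gzmm, another granule protease, was 9.08, 92.2 and 94.4 in FBR, 23.4, 4.32 and 10.1 in in vitro activated, and 130, 424 and 282 in blood CD68+ cells. Its fall in FBR over blood (-2 ± 0.59, adjusted p = 0.026) lost its call without FBR replicate 1 (adjusted p = 0.074), without blood replicate 2 (0.11) or without blood replicate 3 (0.073), and its fall in in vitro activated over blood was -3.28 ± 0.59 (adjusted p = 0.0029).

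Eomes, a T-box factor of NK and memory T cells, had signals of 1.61, 0.671 and 5.33 in FBR, 8.88, 1.17 and 0.807 in in vitro activated, and 60.2, 290 and 164 in blood CD68+ cells, with log2 fold changes of -3.13 and -3.06 (SE 0.44 each). A second, dimmer Eomes probe set passed in neither comparison (-0.96, adjusted p = 0.23, and -0.11, adjusted p = 0.91). Ncr1 (NKp46), an activating receptor typical of NK cells, was dim everywhere, with signals of 11.8, 2.73 and 3.82 in FBR, 21.1, 6.15 and 8.46 in in vitro activated, and 13.8, 36.5 and 65.5 in blood CD68+ cells. FBR lay just below blood (-1.21 ± 0.38, adjusted p = 0.033), and the adjusted p was 0.085 to 0.12 without FBR replicate 2 or 3 or without blood replicate 2 or 3. In in vitro activated over blood the groups overlapped (-0.89 ± 0.38, adjusted p = 0.12, and 0.03 without blood replicate 1).

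**Figure D3:**
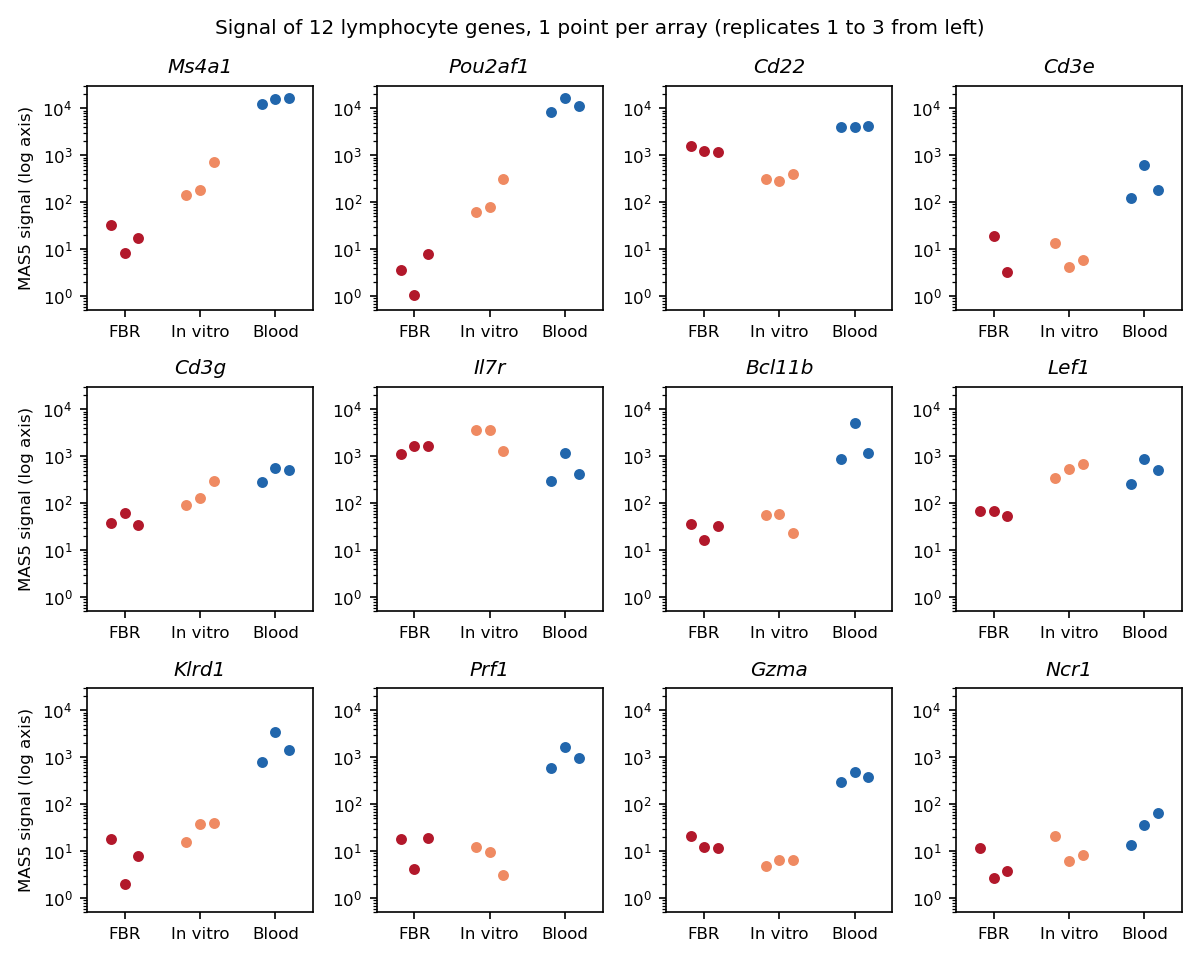
MAS5 signal (log axis) of 12 lymphocyte genes, 1 point per array, with FBR left, in vitro activated in the middle and blood right, replicates 1 to 3 in order within a group. Ms4a1 and Pou2af1 step up in the order FBR, in vitro activated, blood, Cd22 is lowest in in vitro activated cells (290 to 399), Lef1 is low in FBR only (53.1 to 69.6), and Klrd1, Prf1 and Gzma are high on the blood arrays only.

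RefSeq promoters (build GRCr8) of the lymphocyte genes were read for short motifs of lymphocyte factors in the 250 bases before the start, on both strands. A promoter was matched for 26 of the 37 genes (4 B cell, 16 T cell, 6 NK and cytotoxic). The motifs were the octamer ATTTGCAT, a palindrome bound by Ebf1, the Runx core TGTGGT, the E-box CAGGTG, the sequence CTTTGAA for Tcf7 and Lef1, AGATAA for zinc-finger factors such as Gata3, and AGGTGTGA for T-box factors such as Eomes, of which the E-box and T-box motifs can overlap each other. TGTGGT was held by 11 of the 26 genes (42.3%), against 14.5% of 33465 promoters, and CAGGTG by 10 (38.5%), against 15.9%. A gene was counted if any of its promoters held the motif, while the share of all is taken over single promoters. The shares are therefore not fully alike. AGATAA was held by 1 gene, Cd28, against 10.3% of all promoters, and the other 4 motifs by no gene, against 0.738% to 4.68%. The 11 genes with TGTGGT were Cd2, Lck, Lat, Il7r, Cd28, Gzma, Gzmb, Gzmm, Prf1, Nkg7 and Eomes. Among them, Il7r was higher in in vitro activated over blood and Cd28 was not called in any comparison. Cd2 was lower only in in vitro activated over blood, and Lck and Lat only in FBR over blood. The rest were lower in both. TGTGGT was singled out after the counts were seen, and a match is a description of the letters only.

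The promoters of Prf1, Gzmb and Gzma are shown in lower case with TGTGGT, or its reverse complement ACCACA, in capitals. Those of Gzmm and Nkg7, with 1 match each, are not shown. Prf1 lies on chr20:29788790-29789039 (plus strand), Gzmb on chr15:34462470-34462719 (minus strand) and Gzma on chr2:46485697-46485946 (minus strand), each 250 bases ending just before the start.
Prf1: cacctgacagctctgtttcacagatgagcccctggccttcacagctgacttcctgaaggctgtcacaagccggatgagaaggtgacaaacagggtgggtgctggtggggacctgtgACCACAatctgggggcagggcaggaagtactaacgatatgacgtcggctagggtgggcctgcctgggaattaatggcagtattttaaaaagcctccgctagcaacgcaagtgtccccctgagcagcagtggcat
Gzmb: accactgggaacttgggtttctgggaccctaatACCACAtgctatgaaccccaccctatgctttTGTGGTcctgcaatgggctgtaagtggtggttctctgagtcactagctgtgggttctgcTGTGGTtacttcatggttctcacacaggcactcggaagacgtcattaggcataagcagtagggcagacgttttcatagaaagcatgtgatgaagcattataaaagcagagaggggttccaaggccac
Gzma: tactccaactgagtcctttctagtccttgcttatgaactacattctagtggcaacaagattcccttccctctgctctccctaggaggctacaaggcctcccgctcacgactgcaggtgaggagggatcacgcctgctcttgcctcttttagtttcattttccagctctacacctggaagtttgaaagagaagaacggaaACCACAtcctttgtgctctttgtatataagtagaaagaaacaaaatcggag
Gzmb holds 3 matches in its window and Prf1 and Gzma 1 each, the nearest starting 127 bases before the start in Gzmb, 134 in Prf1 and 51 in Gzma.

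FBR and in vitro activated CD68+ cells were also compared directly. Of the 37 genes, 8 were lower in FBR, against 16.7% of all genes, and 1 was higher, against 8.88%, and 28 were not called. FBR lay below in vitro activated without overlap for 9 of 33 genes with 6 values, against 29.9% of all genes, and above for 4, against 16.5%. The median over all genes was -0.23, and with each array centred on its median the median over all genes moved by 0.34, which left 4 genes lower and 3 higher (Cd22, Cd2 and Gzma). The genes lower in FBR were 4 B cell genes (Ms4a1, Cd79b, Pou2af1 and Jchain) and 4 T cell genes (Cd3g, Cd6, Lef1 and Tcf7), and the higher one was Cd22. The medians were -1.99 for the B cell, -0.33 for the T cell and 0.14 for the NK and cytotoxic genes, of which the T cell median turned to 0.01 with median centring and to 0.04 with quantile normalization. With 1 or 64 added the B cell median was -3.05 and -1.11, and with the mean of all probe sets it was -1.15, where the NK and cytotoxic median turned to -0.06. Without in vitro activated replicate 2 the NK and cytotoxic median was -0.15. None of the 8 NK and cytotoxic genes was called by limma, and 0 of them had an unadjusted p under 0.05.

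Ms4a1 (-3.05 ± 0.52, adjusted p = 0.0025), Pou2af1 (-2.74 ± 0.49, adjusted p = 0.0034) and Lef1 (-2.71 ± 0.42, adjusted p = 0.0016) kept their calls whichever array was left out and under both other scalings. The other 5 did not. Cd79b (-2.02 ± 0.58, adjusted p = 0.031) had adjusted p values of 0.052 to 0.1 without FBR replicate 2 or 3 or in vitro activated replicate 2 or 3. Jchain (-1.99 ± 0.50, adjusted p = 0.021) had 0.065 to 0.068 without FBR replicate 2 or 3 or in vitro activated replicate 2, and its second probe set did not pass (-0.32, adjusted p = 0.48). Cd3g (-1.49 ± 0.42, adjusted p = 0.028) had 0.051 to 0.094 without FBR replicate 1 or 3 or in vitro activated replicate 2 or 3. Cd6 (-1.06 ± 0.32, adjusted p = 0.038) had 0.056 to 0.14 without FBR replicate 2 or 3, in vitro activated replicate 1 or 2 or blood replicate 3. Tcf7 (-0.85 ± 0.27, adjusted p = 0.043) kept its call only without blood replicate 2, and had 0.052 to 0.17 without any other array.

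Among genes not called here, Cr2 had -2.10 (adjusted p = 0.063), and -3.09 without in vitro activated replicate 1 (adjusted p = 0.0025), while 3 of its 4 other probe sets were lower in FBR (-1.5, -1.43 and -1.41, adjusted p = 0.024 to 0.032). Ebf1 stood at -0.03 ± 0.47, and 1 of its 2 other probe sets was lower (-1.34, adjusted p = 0.013). Blk passed without in vitro activated replicate 1 (-1.68, adjusted p = 0.024), Gata3 without in vitro activated replicate 3 (-1.31, adjusted p = 0.047), Lat without blood replicate 1 (adjusted p = 0.04) or blood replicate 2 (0.045), and Gzmm, in the other direction, without FBR replicate 1 (1.99, adjusted p = 0.02).

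**Figure D4:**
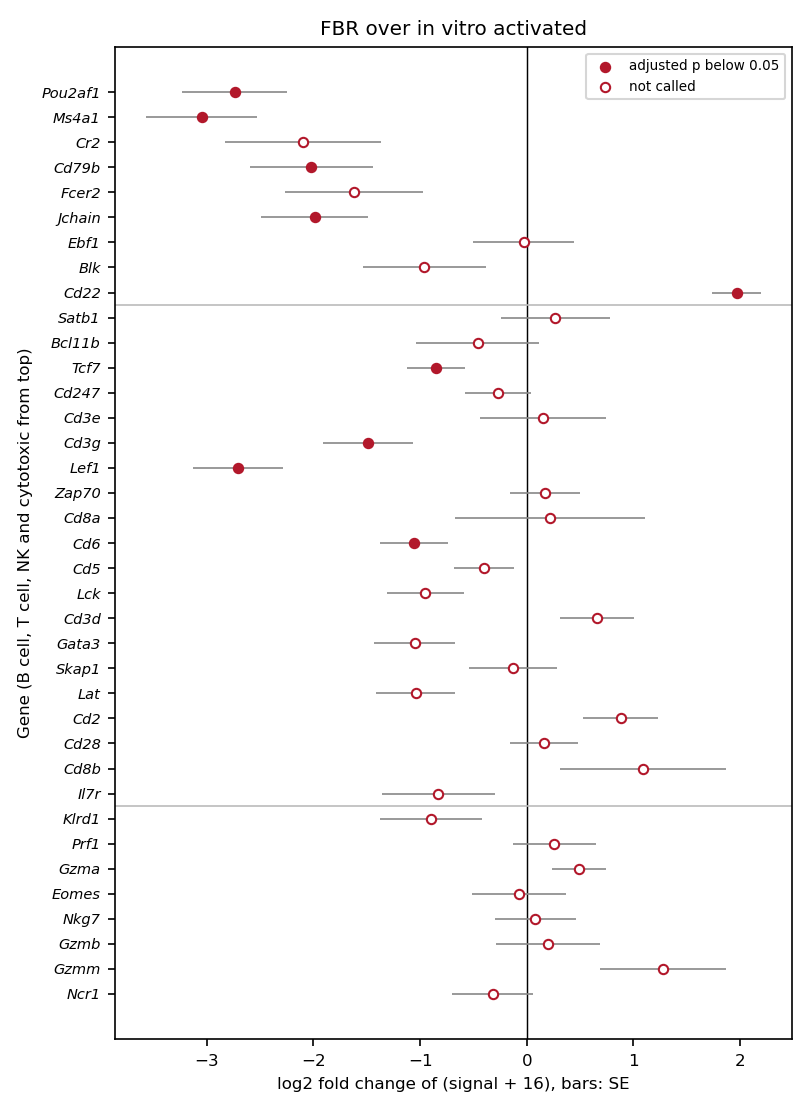
Log2 fold change of the signal plus 16 (x axis, bars are SE) of each of the 37 genes (rows, same order as in the plot against blood) in FBR over in vitro activated CD68+ cells, filled where the adjusted p was under 0.05. Cd22 is filled at 1.97, 8 genes are filled left of 0 between -3.05 and -0.85, and the 8 NK and cytotoxic genes lie open between -0.90 and 1.28.

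Single arrays carried part of these levels. Of the 9 B cell genes, 7 had their highest in vitro activated signal on replicate 3 and 8 their highest FBR signal on replicate 1. Without in vitro activated replicate 3 the median of the B cell genes in FBR over in vitro activated was -1.30.

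The blood arrays differed from each other by lineage. Blood replicate 2 had the highest blood signal of 15 of the 19 T cell genes with a value on all 3 arrays and of 7 of the 8 NK and cytotoxic genes, and blood replicate 1 the lowest of 16 of 19 and of 8 of 8. On the log2 scale, T cell genes stood at a median of -0.52, 0.45 and 0.03 from their own blood mean on replicates 1, 2 and 3, and NK and cytotoxic genes at -0.74, 0.74 and 0.08. The 8 B cell genes with 3 values stood at -0.26, 0.03 and 0.09. The 17 monocyte and macrophage markers went the other way, at 0.54, -0.86 and 0.26, with 14 of them lowest on replicate 2. Cd2, Cd8a and Cd8b were the 3 T cell genes lowest on blood replicate 2, at -0.63, -0.97 and -2.06 from their blood means, on the side of most monocyte markers. Of the 8 B cell genes, 3 were also lowest there (Cd79b at -0.44, Blk at -0.32 and Cd22 at -0.03). The source of these signals was not tested. Without blood replicate 2, 30 of the 37 genes were lower in FBR over blood and 26 in in vitro activated over blood.

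**Figure D5:**
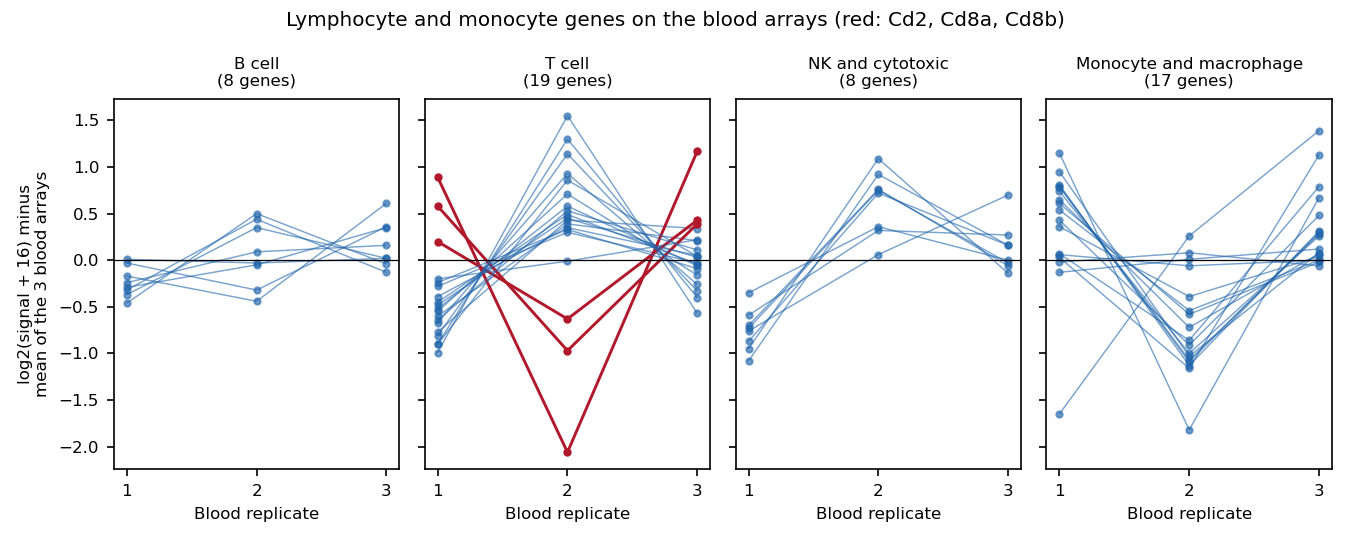
Log2(signal + 16) of each gene minus its mean over the 3 blood arrays (y axis) on blood replicates 1 to 3 (x axis), 1 line per gene, for the B cell, T cell, NK and cytotoxic, and monocyte and macrophage genes. Most T cell and NK lines peak on replicate 2, and most monocyte lines dip there. Red lines mark Cd2, Cd8a and Cd8b, the T cell genes lowest on replicate 2, where 3 of the 8 B cell genes are also lowest.

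Wider lists of the same lineages moved in the same direction with more exceptions. Of 18 further B cell genes measured, 9 were lower and 2 higher in FBR over blood (median -1.29), and 11 were lower and 1 higher in in vitro activated over blood (median -1.54). Over all genes, 19.2% were lower and 14.7% higher in FBR over blood. In in vitro activated over blood these shares were 12.2% and 15.4%. Among those lower in FBR were Bank1, an adaptor of B cell receptor signalling (-5.33), Fcrla, an Fc receptor-like protein of B cells (-4.90), and Vpreb3, a relative of the surrogate light chain (-4.42). The exceptions in FBR were Prdm1 (1.75, adjusted p = 0.0074) and Xbp1 (2.12, adjusted p = 0.001), factors of antibody-secreting cells that other secreting and myeloid cells also use. Xbp1 rose in in vitro activated over blood too (1.4, adjusted p = 0.013).

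Of 29 further T cell genes measured, 17 were lower and 0 higher in FBR over blood (median -1.37), and 19 were lower and 1 higher in in vitro activated over blood (median -2.06). Over all genes, 19.2% were lower and 14.7% higher in FBR over blood. In in vitro activated over blood these shares were 12.2% and 15.4%. In FBR over blood, Gimap5 and Gimap6, GTPases needed for lymphocyte survival, changed by -5.12 and -4.18. Rhoh, a GTPase of blood cells, changed by -4.25 and Ets1 by -4.24. The exception in culture was Icos, an inducible costimulator (1.4, adjusted p = 0.013). Klf2, a factor of resting T cells that monocytes and endothelium also use, had signals of 8560, 10270 and 9361 in FBR, 497, 646 and 413 in in vitro activated, and 8444, 5930 and 9666 in blood CD68+ cells. The log2 fold changes were -3.90 in in vitro activated over blood (adjusted p = 2e-05) and 4.16 in FBR over in vitro activated (adjusted p = 1.7e-05). S1pr1, the receptor for lymphocyte exit that Klf2 drives, and Cd69, an early activation marker that holds S1pr1 back, likewise fell in in vitro activated over blood (-3.29 and -3.64) and rose in FBR over in vitro activated (2.68 and 2.32). In FBR over blood Cd69 fell too (-1.32, adjusted p = 0.006), while S1pr1 and Klf2 were not called (-0.61 and 0.25).

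Of 18 further NK cell genes measured, 9 were lower and 2 higher in FBR over blood (median -1.30), and 10 were lower and 2 higher in in vitro activated over blood (median -1.73). Over all genes, 19.2% were lower and 14.7% higher in FBR over blood. In in vitro activated over blood these shares were 12.2% and 15.4%. In FBR over blood Serpinb9 had the largest fall of the list (-5.21). The lectin-like receptors Klrb1a, Klre1 and Klrc2 fell there too (-4.27, -3.97 and -3.02), as did Txk, which also stands in the T cell list (-3.38). Against the list, Cst7 (cystatin F, an inhibitor of lysosomal proteases also made by myeloid cells) rose in FBR (2.53, adjusted p = 0.00099) and in in vitro activated cells (3.07, adjusted p = 0.00048). Gzmf was the other gene called higher in in vitro activated over blood (1.04), at the threshold (adjusted p = 0.05 after rounding). Its signals were low, at 34.1, 43.2 and 109 in in vitro activated and 22.6, 13.4 and 21.1 in blood CD68+ cells. Nfil3, a factor of NK cell development that macrophages also induce, had signals of 5114, 5171 and 4967 in FBR, 217, 292 and 215 in in vitro activated, and 1045, 402 and 799 in blood CD68+ cells. It was higher in FBR than in blood (2.84, adjusted p = 0.00017) and lower in in vitro activated over blood (-1.48, adjusted p = 0.009), with no overlap between groups.

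Between FBR and in vitro activated cells most genes of the wider lists were not called. Of the 29 T cell genes 3 were lower in FBR (Gimap5 -1.86, Gimap6 -1.44 and Nfatc2 -1.03), 4 were higher (Klf2, S1pr1, Cd69 and Runx3) and 22 were not called, of the 18 B cell genes 2 were lower and 2 higher, and of the 18 NK cell genes 2 were lower and 1 higher. Of all genes, 16.7% were lower and 8.88% higher.

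Markers of other cell types were tested in the same fit. Of 8 neutrophil markers 1 was lower and 1 higher in FBR over blood, of 7 platelet and red cell markers 4 were lower and 1 higher, of 8 dendritic cell markers 2 were lower and 3 higher, and of 10 fibroblast, mesothelial and endothelial markers 2 were lower and 4 higher, where 19.2% of all genes were lower and 14.7% higher. In vitro activated over blood gave 1 neutrophil, 3 platelet and red cell, 3 dendritic cell and 2 fibroblast, mesothelial and endothelial markers lower, and 1 of the last list higher, where 12.2% of all genes were lower and 15.4% higher. Hbb, a beta globin of red cells, had signals of 124, 77.6 and 124 in FBR, 30.3, 17.7 and 247 in in vitro activated, and 9345, 2301 and 271 in blood CD68+ cells. It was highest on the blood array where 8 of 8 NK genes were lowest. The part of these cells in the lymphocyte signals was not tested.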

How the data were processed

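The deposited table of MAS5 signal intensity for 31099 probe sets on 9 Rat Genome 230 2.0 arrays was used. The authors amplified RNA in 2 rounds and computed the signals with MAS5. Of its 279891 values, 43356 (15.49%) stood as integers of 6 or 7 digits without a decimal point and were scaled down by 1000, 184 (0.07%) were read back from dates, and 2807 (1.00%) with more than 1 reading were left missing. Among the 333 member values, 50 were restored and 6 were missing. In a test, randomly drawn values were damaged by the rules that the restoration undoes, and no value was restored wrongly. This checks the code only, not whether the deposited values were damaged in that way, and the earliest dates were not covered. The authors' own RMA comparisons (fold changes and p-values) were not used. Detection calls are not analysed here, so a low signal does not show that a transcript was absent.

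A total of 20832 probe sets carry 1 symbol, 436 several and 9831 none; none was named from several. limma 3.58.1 (R 4.3.3; lmFit, eBayes) was fitted to log2(signal + 16) over the 9 arrays without a block, adjusting p values over all probe sets (Benjamini-Hochberg). It was tested on simulated data. With 3 arrays a group, an exact two-sided permutation test cannot go below 0.1 and was not used. Alternatives were other pseudocounts (1, 64), a filter (signal of 100 on 3 arrays), quantile normalization, median centring, only the 6 arrays compared, array weights, eBayes with trend and robust estimation, leaving out single arrays, a replicate block, the mean of all probe sets, restored values left missing, and an adjusted p under 0.01. The members and lists were chosen with earlier results of these data known. Every member was accounted for; genes central to each role, those called higher than in blood or in opposite directions, and those whose probe sets disagree were given by array, and wider lists by counts and leading or opposing genes. Python 3.11.15, pandas 2.3.3 and matplotlib 3.10.9 prepared tables and figures.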

Additional observations from a re-analysis of the deposited data

How the results depend on the processing

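The count of genes lower in FBR over blood was 32, 30 to 33 with 1 array left out and 31 with a replicate block. It was 34 with array weights, 24 of 30 tested with restored values left missing and 28 at an adjusted p under 0.01. None was higher, but 1 (Il7r) was with the filter on low signals, median centring, trend and robust options, array weights, the mean of all probe sets or restored values left missing, and 0 to 1 were with 1 array left out. In in vitro activated over blood 28 were lower (26 to 30 with 1 array left out, 28 with the block) and 1 higher, which became 0 with restored values left missing or an adjusted p under 0.01. The lower count there was 22 of 30 tested with restored values left missing and 24 at an adjusted p under 0.01. In FBR over in vitro activated 8 were lower. This became 12 of 33 tested with the filter on low signals, 11 with array weights, 10 with the mean of all probe sets, 6 with pseudocount 1 or 64, 3 with quantile normalization, 4 with median centring, 5 with restored values left missing and 3 at an adjusted p under 0.01, with 6 under the block and 3 to 10 with 1 array left out (3 without in vitro activated replicate 2 or FBR replicate 3, 4 without FBR replicate 2). The 1 higher became 2 with pseudocount 1, quantile normalization or array weights, 3 with median centring, 0 with restored values left missing, and 1 to 2 with 1 array left out. The cause was not tested, except that fewer genes are tested with restored values left missing and that the stricter threshold passes fewer by its construction. Median centring moved the median of all genes by 0.37 in FBR over blood, 0.02 in in vitro activated over blood and 0.34 in FBR over in vitro activated, and quantile normalization by 0.16, 0 and 0.16.

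Of 729 single-gene values in FBR over blood under these alternatives, 698 kept direction and call, as did 697 of 729 in in vitro activated over blood and 634 of 734 in FBR over in vitro activated. The signs that turned did so in 1, 6 and 30 values, all of genes not called. In in vitro activated over blood, Lef1 was -0.05 with the mean of probe sets and -0.40 to 0.47 without single arrays, and Cd8b -1.22 to 0.39. Cd8b in FBR over blood was -0.13 (without blood replicate 2) to 1.48. In FBR over in vitro activated, pseudocount 1 gave Ebf1 0.29. Quantile normalization gave Ebf1 0.24, Cd247 0.12, Eomes 0.01 and Skap1 0.16. Median centring gave Ebf1 0.32, Cd247 0.08, Ncr1 0.02, Eomes 0.28 and Skap1 0.21. The mean of probe sets gave Cd3e -0.15 and Gzmb -0.19. Leaving out single arrays gave Ebf1 -0.60 to 0.27, Cd3e -0.28 to 0.58, Cd8a -0.78 to 0.98, Zap70 -0.03 to 0.32, Cd28 -0.13 to 0.38, Satb1 -0.18 to 0.72, Gzmb -0.22 to 0.61, Nkg7 -0.14 to 0.45, Eomes -0.17 to 0.12 and Skap1 -0.42 to 0.06.

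The titles number the replicates 1 to 3 in each group, and nothing ties equal numbers. Deviations of same-numbered arrays from their group means correlated at -0.06 to 0.07 over 9 pairs, 0 of them over 0.1, so the block is given as an alternative only. The number of arrays limits the precision, and low signals limit the size of the largest falls.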
